A study of Mus musculus with 16 samples.

Results

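Complement was followed in db/db mouse liver through 31 genes for its components, regulators and receptors. The genes were taken by symbol from a fixed list, and all 31 were found among the 40324 symbols of the deposited count table. Of these, 20 are made mainly by hepatocytes, 6 mainly by macrophages (C1qa, C1qb, C1qc, Cfp, C3ar1 and C5ar1) and 5 mainly by other cells or by many cell types (Cfd, C7, Cd55, Cd59a and Cr1l). These sources were assigned from general knowledge of the genes and not from the livers. The comparison asked how complement transcripts differed between livers given arcA and livers given green fluorescent protein (GFP), and whether transcripts of hepatocyte and of macrophage origin differed in the same way.

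All 16 liver samples were labelled db/db, a strain that lacks a working leptin receptor and becomes obese and diabetic. Littermates received adeno-associated virus of serotype 8 (AAV8), a vector that enters hepatocytes well, at about 5 weeks of age. In 8 samples, labelled control by genotype, the virus encoded GFP, and in the other 8 it encoded arcA, which the labels do not explain and which is also the name of a bacterial arginine deiminase gene. Livers were taken at an age of 10 weeks, 5 weeks after the virus. Both groups thus share the db/db background and the virus, and a lean or uninjected group was not analysed here. The labels name neither the promoter of the transgene nor the vector dose or the sex of the mice, and they do not say that each sample came from a different mouse. If some did not, the p-values measure only the spread between these samples.

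Complement is a cascade of plasma proteins, most of them secreted by the liver, that marks microbes and dying cells for uptake and can pierce membranes. It starts through C1q (classical pathway), through mannose-binding lectins (lectin pathway) or through slow turnover of C3 (alternative pathway), and the 3 routes meet where C3 is cut. The fragments C3a and C5a call in and activate myeloid cells through the receptors C3ar1 and C5ar1, and C5b to C9 build the membrane attack complex. In the liver, hepatocytes supply C3 and most soluble proteins, while Kupffer cells and other macrophages are a main source of C1q.

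Libraries held 28912561 to 53520828 counts. Gm42418, a transcript that overlaps ribosomal RNA sequence, took 11.8% to 19.4% of the counts in GFP 2, 3 and 5 and 2.29% to 7.37% elsewhere. The acute phase gene Saa2 stood at 4578 and 9398 CPM (counts scaled by library size) in arcA 3 and 8, against 9.84 to 172 CPM in the other 14 livers. Results that rest on these libraries are given with and without them. All levels below are CPM of the TMM-scaled library size. In bulk liver, fewer cells of a type and less RNA of a gene per cell cannot be told apart.

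Transcripts of the hepatocyte-made C3, Cfi, Masp2 and Serping1 were higher in the arcA group, and those of C1qa, C1qb, C1qc, C3ar1 and C5ar1, all of macrophage origin, were lower. The higher genes rose by 1.16-fold (Masp2) to 1.67-fold (C3), and the lower genes were 1.63-fold (C1qa) to 3.79-fold (C5ar1) lower. With edgeR's quasi-likelihood test and Benjamini-Hochberg adjustment at 0.05, 4 of 30 tested members were higher, where 4.27% of all 14476 tested genes were (618 genes). Lower were 5 of the 30, where 6.57% of all tested genes were (951 genes). C7 was below the expression filter, and C5ar1 passed it only through the GFP group, where it is high, so its inclusion already depends on its difference. The median log2 fold change was 0.11 over the 30 members and 0.0091 over all tested genes. Masp2 was the member in which every arcA liver exceeded every GFP liver, a separation found in 0.566% of tested genes. In C3ar1 and C5ar1 every arcA liver lay below every GFP liver, as in 1.20% of tested genes.

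**Figure D1:**
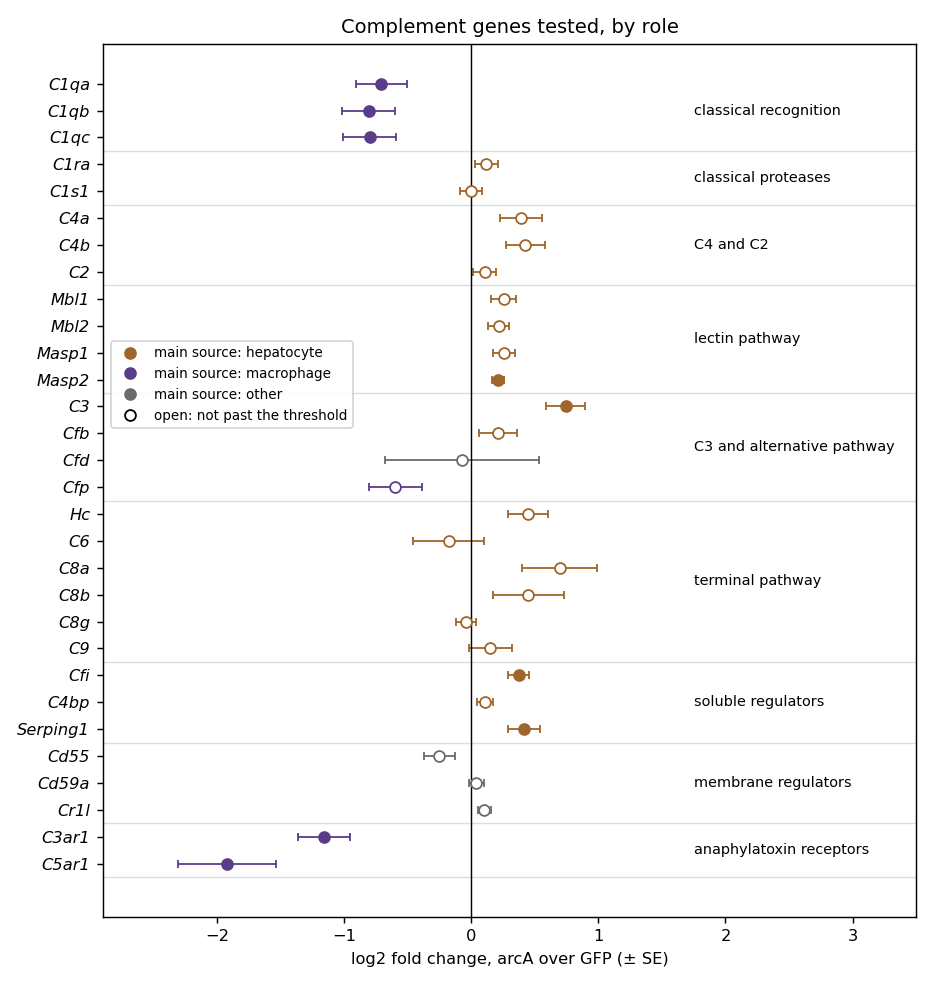
Log2 fold change (arcA over GFP, x axis, ± SE, 8 livers per group) of the 30 tested complement genes, grouped by role. Filled points passed the threshold. The 4 higher genes are hepatocyte-made and the 5 lower ones macrophage-made; the SE of Cfd spans 0.61 on either side.

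By main source, 4 of 20 hepatocyte members rose and 0 fell. Of the 20, 17 had a fold change above 0, and their median log2 fold change was 0.24. Of 18 tested hepatocyte markers, 16 also had a fold change above 0, at a median of 0.20. With scaling on those markers, 14 of the 20 members were above 0, at a median of 0.10, and C3 alone passed. Of the 6 macrophage members 0 rose and 5 fell, and their median was -0.81. Among the 5 is C5ar1, which reached the expression filter only through the GFP group. The sixth, Cfp, did not pass. Of the 4 tested members from other sources none passed. Without arcA 3 and 8, 3 hepatocyte members (Masp2, C3 and Cfi) rose and all 6 macrophage members fell, at a macrophage median of -1.06. Without GFP 2, 3 and 5, 5 hepatocyte members (Mbl1, Mbl2, Masp2, C3 and Cfi) rose and 3 macrophage members (C1qb, C3ar1 and C5ar1) fell. A ratio of 1 member of each source was also taken within libraries. It speaks of these genes and not of the sources as groups. C3 had already passed as higher and C1qa as lower in the same livers, so the ratio only describes those 2 differences together. The log2 ratio of C3 to C1qa counts was 7.15 ± 0.41 in GFP and 8.66 ± 0.33 in arcA livers (SD, n = 8), without overlap, a difference of 1.51 (exact permutation test, two-sided, adjusted p = 0.00155 over 20 ratios; higher than the GFP median in 8 of 8 arcA livers).

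C1q, the recognition molecule of the classical pathway, is built from 3 chains encoded side by side on chromosome 4 (GRCm38, minus strand). C1qb lies at chr4:136880129-136886187, C1qc at chr4:136889804-136893065 and C1qa at chr4:136895917-136898803, with gaps of 3616 and 2851 bases between them. The promoter windows of C1qb (chr4:136886151-136886450) and C1qc (chr4:136892865-136893164) are printed because these neighbours were lower together. Each RefSeq window (GRCm38.p6) runs from 250 bases before to 50 bases after the start site, 5′ to 3′ on the gene's strand, and capitals mark a match to a searched motif.
C1qb: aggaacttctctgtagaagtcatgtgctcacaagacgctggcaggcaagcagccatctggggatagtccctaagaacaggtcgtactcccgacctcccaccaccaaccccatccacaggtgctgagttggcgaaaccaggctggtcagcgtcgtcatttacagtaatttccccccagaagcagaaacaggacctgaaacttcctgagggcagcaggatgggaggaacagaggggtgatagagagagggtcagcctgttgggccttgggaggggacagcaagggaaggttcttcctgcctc
C1qc: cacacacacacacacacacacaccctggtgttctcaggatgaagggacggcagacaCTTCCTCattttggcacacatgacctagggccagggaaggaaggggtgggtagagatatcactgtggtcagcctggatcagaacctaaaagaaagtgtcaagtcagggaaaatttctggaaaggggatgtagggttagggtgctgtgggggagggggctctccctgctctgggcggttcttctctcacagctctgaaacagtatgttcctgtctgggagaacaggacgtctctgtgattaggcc
The capitals in C1qc are the reverse complement of GAGGAAG, the core bound by the myeloid factor PU.1. They begin 194 bases before the RefSeq start site of the window. That start site lies inside the C1qc coordinates given above, so by those coordinates the capitals are closer to the gene. Such a match was present in 13.6% of 32851 mouse promoter windows of this length. In the C1qb window none of the motifs searched was found.

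C1qa stood at 37.3, 43.2 and 56.9 CPM (lowest, median, highest) in GFP livers and at 15.3, 22.4 and 52.1 CPM in arcA livers. In 7 of 8 arcA livers it was below the lowest GFP liver, and arcA 3 alone sat among the GFP values. The difference on the log2 scale was -0.71 ± 0.20 (SE; edgeR, adjusted p = 0.0341). This call was lost when any of GFP 1, 5, 6 or 7 or arcA 1, 2, 4, 5 or 7 was left out (adjusted p up to 0.0733 in edgeR over the 16 fits), and without GFP 2, 3 and 5 (-0.73, adjusted p = 0.101). C1qb ranged over 32.2, 42.6 and 51.1 CPM in GFP and 12.03, 21.7 and 43.8 CPM in arcA livers. Again 7 of 8 arcA livers were below every GFP liver and arcA 3 was not. The log2 fold change of C1qb was -0.81 ± 0.21 (edgeR, adjusted p = 0.0208), past the threshold in all 16 fits that leave out a library. C1qc ranged over 34.6, 42.8 and 55.5 CPM in GFP and 14.3, 21.5 and 46.9 CPM in arcA livers, with the same 7 livers below. Its log2 fold change was -0.80 ± 0.21 (edgeR, adjusted p = 0.0212), and -0.84 without GFP 2, 3 and 5 (adjusted p = 0.0619). The ratios between the chains did not pass the test. The log2 ratio of C1qa to C1qb was 0.08 ± 0.16 in GFP and 0.17 ± 0.11 in arcA livers (adjusted p = 0.415, exact permutation test), and that of C1qc to C1qb 0.06 ± 0.10 and 0.07 ± 0.11 (adjusted p = 0.991).

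The proteases that C1q activates, C1r and C1s, come from hepatocytes and neither passed the test. C1ra stood at 114, 151 and 172 CPM in GFP and 131, 153 and 202 CPM in arcA livers (log2 fold change 0.12 ± 0.09; edgeR, adjusted p = 0.463). C1s1 stood at 72.8, 89.9 and 103 CPM in GFP and 76.7, 85.0 and 108 CPM in arcA livers (-0.0025 ± 0.08; edgeR, adjusted p = 0.99). For each, 3 of 8 arcA livers lay above every GFP liver and the ranges otherwise overlapped. Both counts are uncertain because of close copies: 56.9% of the 31-base words of the C1ra transcript also occur in C1rb and 36.5% of those of C1s1 in C1s2. C1rb (0.12 ± 0.09) and C1s2 (-0.02 ± 0.09) did not pass the test either.

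C4 and C2 form the C3-cutting enzyme of the classical and lectin pathways. C4b stood at 795, 952 and 1173 CPM in GFP and 873, 1096 and 1922 CPM in arcA livers, with 3 arcA livers above every GFP liver. The difference on the log2 scale was 0.42 ± 0.15 (edgeR, adjusted p = 0.0869). C4a, the second mouse C4 gene, stood at 65.4, 75.1 and 110 CPM in GFP and 78.7, 91.3 and 159 CPM in arcA livers (0.39 ± 0.17; edgeR, adjusted p = 0.155). All 8 arcA livers exceeded the GFP median of C4a, and 6 of 8 that of C4b. The copies share 48.8% of the 31-base words of the C4b transcript, so reads could be split or lost between them, and the log2 ratio of C4b to C4a was 3.57 ± 0.16 in GFP and 3.57 ± 0.11 in arcA livers (adjusted p = 0.991, exact permutation test). C2 stood at 11.7, 13.6 and 17.5 CPM in GFP and 12.6, 14.9 and 18.8 CPM in arcA livers (0.11 ± 0.09; edgeR, adjusted p = 0.514). In the GENCODE M21 annotation, 42.8% of the exon bases of C2 and 79.5% of those of its neighbour Cfb also belong to a same-strand gene, Gm20547, which had 0 counts in every library. Reads there may have been dropped as ambiguous, so the levels of C2 and Cfb may be too low.

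In the lectin pathway, mannose-binding lectins recognise sugars on microbes and the serine proteases Masp1 and Masp2 carry the signal on. Masp2 stood at 112, 128 and 133 CPM in GFP and 134, 145 and 154 CPM in arcA livers. The groups did not overlap, although the lowest arcA liver was 134 and the highest GFP liver 133 CPM. The log2 fold change of 0.21 ± 0.05 (edgeR, adjusted p = 0.00689) was the smallest of those past the threshold among the members. It kept its call in all 16 fits that leave out a library and without arcA 3 and 8, but not in edgeR with scaling by library size alone (0.19, adjusted p = 0.069) or on hepatocyte marker genes (0.07, adjusted p = 0.417). Of the Masp2 exon bases, 54.9% overlap Tardbp on the opposite strand, and no source used here states whether the counting used strand. Tardbp stood at 49.3 ± 6.19 CPM in GFP and 56.9 ± 6.01 CPM in arcA livers (SD, n = 8). Its log2 fold change was 0.21 ± 0.08 (edgeR, adjusted p = 0.102). Whether reads over the shared bases were assigned to the right gene, to the wrong gene or dropped is not known. The Masp2 window (chr4:148602294-148602593, plus strand) is shown because Masp2 is the member without overlap between the groups.
Masp2: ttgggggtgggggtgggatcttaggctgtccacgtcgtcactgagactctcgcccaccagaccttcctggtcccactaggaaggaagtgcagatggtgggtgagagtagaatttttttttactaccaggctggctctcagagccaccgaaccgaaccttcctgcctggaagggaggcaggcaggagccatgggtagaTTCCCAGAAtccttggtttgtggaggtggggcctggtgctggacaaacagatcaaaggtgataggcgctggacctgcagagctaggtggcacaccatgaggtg
Its capitals match TTCNNNGAA, the motif of STAT factors, 53 bases before the start site, which 8.3% of all windows hold.

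Mbl1 stood at 127, 164 and 241 CPM in GFP and 177, 199 and 223 CPM in arcA livers (0.26 ± 0.10; edgeR, adjusted p = 0.102). Mbl2 stood at 157, 203 and 265 CPM in GFP and 231, 237 and 247 CPM in arcA livers (0.21 ± 0.08; edgeR, adjusted p = 0.109). For both lectins all 8 arcA livers exceeded the GFP median while GFP 3 had the highest level of all. Without GFP 3 alone both passed (Mbl1 0.34, adjusted p = 0.00587; Mbl2 0.27, adjusted p = 0.0263 in edgeR), as they did without GFP 2, 3 and 5. The spread of Mbl2 was 17.6% of the mean in GFP and 2.8% in arcA livers (coefficient of variation). Masp1 stood at 44.8, 48.2 and 59.9 CPM in GFP and 49.5, 58.3 and 75.3 CPM in arcA livers (0.26 ± 0.09; edgeR, adjusted p = 0.071), and again all 8 arcA livers exceeded the GFP median. Masp1 passed in the edgeR fit without arcA 2 (0.29, adjusted p = 0.0455).

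C3, on which all routes converge, was the most abundant member. Per kilobase of exon it reached 1223 CPM in GFP livers, against 287 for Serping1, the next in order, and its share of all member counts was 48.8% to 59.5% in the GFP group against 60.0% to 65.6% in the arcA group, without overlap. The level of C3 was 4666, 6183 and 7769 CPM in GFP and 7337, 9389 and 14784 CPM in arcA livers. In 7 of 8 arcA livers it exceeded every GFP liver; arcA 2 was the exception, and arcA 3 and 8 were the highest. The log2 fold change was 0.74 ± 0.15, or 1.67-fold (edgeR, adjusted p = 0.0043). It was called in all 16 fits that leave out a library (0.64 to 0.80, adjusted p up to 0.0108) and in all 12 other alternatives. The share of all library counts taken by the 31 members was 1.01% to 1.30% in the GFP group and 1.16% to 2.27% in the arcA group. The C3 window (chr17:57228087-57228386, minus strand; gene at chr17:57203970-57228136) is shown because C3 carries most of this signal.
C3: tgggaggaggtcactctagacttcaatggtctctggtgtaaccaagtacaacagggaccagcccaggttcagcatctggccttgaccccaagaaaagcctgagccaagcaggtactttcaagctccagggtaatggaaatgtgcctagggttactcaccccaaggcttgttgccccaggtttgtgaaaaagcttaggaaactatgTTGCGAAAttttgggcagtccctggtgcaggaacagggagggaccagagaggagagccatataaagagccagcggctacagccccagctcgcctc
Its capitals match TTGCNNAA, the motif of C/EBP factors, 45 bases before the start site, which 10.8% of all windows hold.

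Factor B, encoded by Cfb, joins C3b in the alternative pathway. Its level may be too low, since 79.5% of the exon bases of Cfb also belong to Gm20547. Cfb had 90 to 290 counts per library, and the ratio of C3 to Cfb carries the same limit. Cfb stood at 2.87, 3.83 and 4.55 CPM in GFP and 3.34, 3.93 and 6.88 CPM in arcA livers (0.21 ± 0.15; edgeR, adjusted p = 0.425), and 4 of 8 arcA livers exceeded the GFP median. Within libraries, C3 rose relative to Cfb by 0.55 on the log2 scale and relative to Cfi by 0.36 (exact permutation test, both adjusted p = 0.0162; both higher than the GFP median in 8 of 8 arcA livers). Relative to Alb, albumin, it rose by 0.55 (exact permutation test, adjusted p = 0.0487), in 7 of 8 arcA livers. The rise over Alb lost its call in 10 of 16 recalculations that left out a library (GFP 1, 2, 6, 7 or 8 or arcA 3, 4, 6, 7 or 8), and without arcA 3 and 8 it was 0.30 (exact permutation test, adjusted p = 0.157). The rise over Cfi was 0.27 without arcA 3 and 8 (exact permutation test, adjusted p = 0.0733). Factor D, encoded by Cfd and best known as adipsin of fat cells, was near the limit of detection with 0 to 81 counts per library. Its levels were 0.09, 0.30 and 1.35 CPM in GFP and 0, 0.39 and 0.86 CPM in arcA livers (-0.07 ± 0.61; edgeR, adjusted p = 0.96). Properdin, the stabiliser of the alternative pathway enzyme and encoded by Cfp, is made by myeloid cells. Cfp stood at 13.02, 16.5 and 21.1 CPM in GFP and 7.06, 8.99 and 21.9 CPM in arcA livers, with arcA 3 the highest of all 16. Its log2 fold change was -0.60 ± 0.21 (edgeR, adjusted p = 0.08), and -0.82 without arcA 3 (adjusted p = 0.00118).

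**Figure D2:**
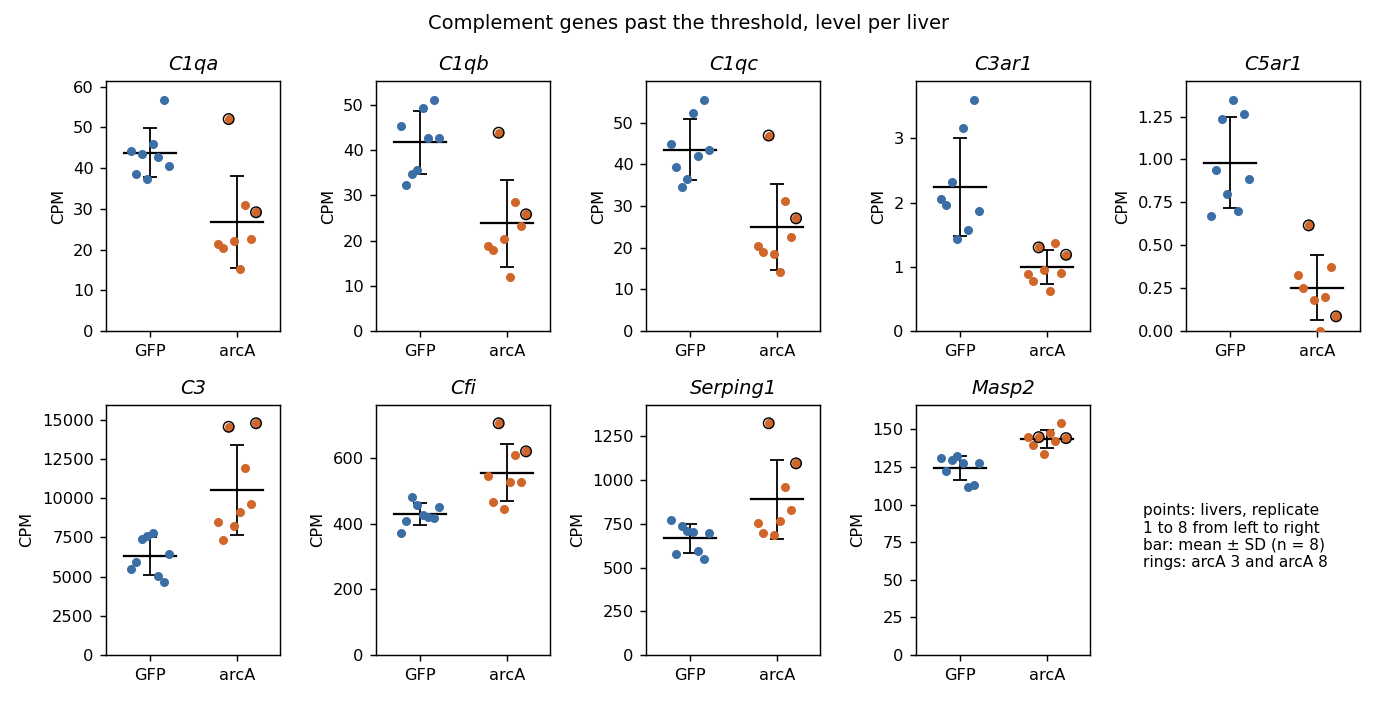
Level in CPM (linear y axis from 0) of the 9 complement genes past the threshold, 1 point per liver, with mean ± SD of 8 livers. arcA 3, ringed with arcA 8, lies among the GFP livers for C1qa at 52.1 CPM, and both lie at the top for C3 (14558 and 14784 CPM).

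None of the 6 tested genes of the terminal pathway passed. C5, encoded in mice by Hc, stood at 277, 360 and 453 CPM in GFP and 334, 425 and 713 CPM in arcA livers, 7 of 8 above the GFP median (0.44 ± 0.16; edgeR, adjusted p = 0.0819). C8a stood at 80.9, 152 and 241 CPM in GFP and 137, 206 and 483 CPM in arcA livers, and its partner C8b, 11130 bases away on chromosome 4, at 29.2, 87.1 and 134 CPM and 82.9, 99.4 and 175 CPM. C8a (0.70 ± 0.30; adjusted p = 0.155) and C8b (0.45 ± 0.28; adjusted p = 0.356, both edgeR) varied widely, by 39.8% and 43.9% of the mean in GFP livers (C6 by 40.0%), and GFP 7 was the lowest and GFP 3 the highest GFP liver for both. The third C8 chain, C8g, stood at 270, 311 and 383 CPM in GFP and 249, 318 and 366 CPM in arcA livers (-0.04 ± 0.08; edgeR, adjusted p = 0.808). C9, the pore-forming subunit, stood at 296, 399 and 586 CPM in GFP and 339, 418 and 666 CPM in arcA livers (0.15 ± 0.17; edgeR, adjusted p = 0.656). C6 stood at 8.38, 16.9 and 30.6 CPM in GFP and 7.81, 13.4 and 27.5 CPM in arcA livers (-0.18 ± 0.28; edgeR, adjusted p = 0.761). C7 had 0 to 28 counts per library and was not tested; its levels were 0.10, 0.16 and 0.63 CPM in GFP and 0, 0.16 and 0.24 CPM in arcA livers.

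Among the soluble regulators, Cfi and Serping1 rose and C4bp did not pass. Factor I, encoded by Cfi, cuts C3b and C4b. Cfi stood at 372, 424 and 481 CPM in GFP and 444, 535 and 706 CPM in arcA livers, 6 of 8 above every GFP liver and all 8 above the GFP median. The difference on the log2 scale was 0.37 ± 0.08 (edgeR, adjusted p = 0.0072), and it passed in all 16 fits that leave out a library. Serping1 encodes C1 inhibitor, the brake on C1r, C1s and the lectin pathway proteases. It stood at 550, 699 and 771 CPM in GFP and 685, 799 and 1326 CPM in arcA livers, 6 of 8 above the GFP median, with arcA 3 and 8 the highest. Its log2 fold change was 0.41 ± 0.13 (edgeR, adjusted p = 0.0392), and 0.22 without arcA 3 and 8 (adjusted p = 0.117). The call of Serping1 also failed when any of GFP 2, 4, 5, 6, 7 or 8 or arcA 3, 6, 7 or 8 was left out (edgeR, adjusted p up to 0.0855), so it was held in 6 of 16 such fits. C4bp, a cofactor of factor I, varied least of all members in GFP livers (3.73% of the mean). It stood at 453, 487 and 505 CPM in GFP and 477, 503 and 646 CPM in arcA livers (0.11 ± 0.06; edgeR, adjusted p = 0.323).

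The membrane regulators protect host cells. None passed. Cd55, decay-accelerating factor, stood at 4.21, 5.08 and 5.83 CPM in GFP and 3.29, 4.09 and 6.08 CPM in arcA livers; 7 of 8 arcA livers were below the GFP median and arcA 4 was the highest of all 16. The difference on the log2 scale was -0.25 ± 0.12 (edgeR, adjusted p = 0.191), and -0.34 without arcA 4 (adjusted p = 0.0434). Cd59a, which blocks C9 assembly, stood at 83.5, 102 and 116 CPM in GFP and 90.7, 105 and 116 CPM in arcA livers (0.04 ± 0.06; edgeR, adjusted p = 0.758). Cr1l, known as Crry and the main rodent membrane cofactor, stood at 25.4, 27.5 and 31.8 CPM in GFP and 28.1, 29.8 and 32.4 CPM in arcA livers (0.10 ± 0.05; edgeR, adjusted p = 0.23).

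The anaphylatoxin receptors had the steepest differences. C3ar1, the receptor of C3a, stood at 1.43, 2.01 and 3.60 CPM in GFP and 0.625, 0.929 and 1.38 CPM in arcA livers, so the groups did not overlap. Its log2 fold change was -1.16 ± 0.21, 2.23-fold lower (edgeR, adjusted p = 0.00128), from 725 counts in all GFP and 333 in all arcA libraries. C5ar1, the receptor of C5a, stood at 0.672, 0.913 and 1.35 CPM in GFP and 0, 0.225 and 0.616 CPM in arcA livers, again without overlap. The difference on the log2 scale was -1.92 ± 0.38, 3.79-fold lower (edgeR, adjusted p = 0.00299), from 306 and 84 counts. C5ar1 reached the expression filter only through the GFP group, so its difference and p-value are given as a description. In arcA 5 C5ar1 had 0 counts, and arcA 3 had the highest arcA level. C3ar1 passed in all 16 fits that leave out a library. C5ar1 did too, but its inclusion already depends on its difference. C5ar2, a second C5a receptor outside the member list, had a log2 fold change of -0.63 ± 0.22 (edgeR, adjusted p = 0.0731). The windows of C3ar1 (chr6:122856108-122856407) and C5ar1 (chr7:16259289-16259588), both on the minus strand, are shown because these receptors separated the groups.
C3ar1: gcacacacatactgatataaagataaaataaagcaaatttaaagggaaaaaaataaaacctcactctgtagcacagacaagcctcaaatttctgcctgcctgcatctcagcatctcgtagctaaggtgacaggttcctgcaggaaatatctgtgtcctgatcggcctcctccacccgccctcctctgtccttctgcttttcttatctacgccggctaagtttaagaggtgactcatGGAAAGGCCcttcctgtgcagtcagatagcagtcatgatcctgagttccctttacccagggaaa
C5ar1: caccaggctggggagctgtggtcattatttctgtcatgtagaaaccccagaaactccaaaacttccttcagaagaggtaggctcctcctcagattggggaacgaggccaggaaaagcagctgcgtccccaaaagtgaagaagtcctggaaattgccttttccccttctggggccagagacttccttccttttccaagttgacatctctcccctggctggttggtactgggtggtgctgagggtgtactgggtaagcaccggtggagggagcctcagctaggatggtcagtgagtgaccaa
The capitals in C3ar1 are the reverse complement of GGNNTTTCC, a motif of NF-kB, 14 bases before the start site, found in 5.82% of all windows; C5ar1 had no match. Of the motifs searched, 4 are reported here. Over all member windows, 25 for 23 of the 31 genes, the NF-kB motif was in 1, the C/EBP motif in 4, the STAT motif in 4 and the PU.1 motif in 1. Both strands were searched, the matches did not overlap, and a match is a description of the letters only.

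The lower macrophage members moved together with markers of macrophages and other leukocytes, whose part in the result was not tested. Beside the counts that follow, 4.27% of all tested genes rose and 6.57% fell. Of 20 Kupffer cell markers 0 rose and 9 fell, at a median log2 fold change of -0.62, and their levels summed to between 515 and 708 CPM in GFP livers and between 348 and 634 CPM in arcA livers. None of the 20 was at 0 everywhere. Of 11 markers of lipid-associated macrophages 8 fell (median -1.99; sums 75.7 to 146 CPM in the GFP group and 34.99 to 67.4 CPM in the arcA group), and of 10 tested monocyte markers 7 fell (median -1.02). Of 17 genes induced by interferon gamma 14 fell (median -1.32). All 7 tested T cell markers and all 5 tested B and plasma cell markers were lower, but all 7 of the former and 2 of the latter reached the expression filter only through the GFP group, so their inclusion already depends on the difference. The same holds for 4 of the 8 lower markers of lipid-associated macrophages, 2 of the 7 lower monocyte markers, 1 of the 14 interferon gamma genes and none of the Kupffer cell markers. Of 3 tested neutrophil markers 0 passed. Adgre1, the F4/80 antigen, and Clec4f, a lectin of resident Kupffer cells, served as reference genes. Clec4f fell from 58.5 ± 8.45 to 39.9 ± 11.4 CPM (SD, n = 8; log2 fold change -0.55 ± 0.15; edgeR, adjusted p = 0.0271), and Adgre1 stood at 9.84 ± 1.87 and 6.24 ± 3.46 CPM (-0.66 ± 0.25; adjusted p = 0.116). Without arcA 3 and 8, Adgre1 fell too (-1.11; edgeR, adjusted p = 7.742e-05), and 14 of the 20 Kupffer cell markers fell, at a median of -0.84.

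Ratios within a library do not depend on scaling between libraries. The log2 ratio of C1qa to Adgre1 was 2.16 ± 0.20 in GFP and 2.16 ± 0.21 in arcA livers, a difference of -0.0019 (exact permutation test, adjusted p = 0.991). Relative to Clec4f, C1qa was lower by 0.20, from -0.42 ± 0.11 to -0.62 ± 0.18 (adjusted p = 0.0497, 7 of 8 arcA livers below the GFP median; exact permutation test). That call failed in 14 of 16 recalculations that left out a library, all but GFP 2 and arcA 3. The ratio of Cfp to Clec4f differed by -0.10 (exact permutation test, adjusted p = 0.568). The log2 ratio of C3ar1 to Clec4f went from -4.75 ± 0.34 to -5.29 ± 0.17 (difference -0.55; exact permutation test, adjusted p = 0.00414), every arcA liver was under the GFP median, and the call held in all 16 recalculations without a library. The log2 ratio of C5ar1 to Clec4f was -5.91 ± 0.38 in GFP and -7.73 ± 1.46 in arcA livers (difference -1.82; exact permutation test, adjusted p = 0.00155). Its size rests in part on the 0.5 added to each count, since C5ar1 had 0 counts in arcA 5, and it was -1.38 without that liver and -1.62 without GFP 2, 3 and 5 (exact permutation test, adjusted p = 0.0777). As C5ar1 reached the filter only through the GFP group, its ratio is given as a description. Relative to C1qa, C3ar1 was lower by 0.34 (exact permutation test, adjusted p = 0.0676). In all, 7 of 20 ratios passed, among them C3 to C1qa and C5ar1 to Clec4f, which are given as descriptions only.

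**Figure D3:**
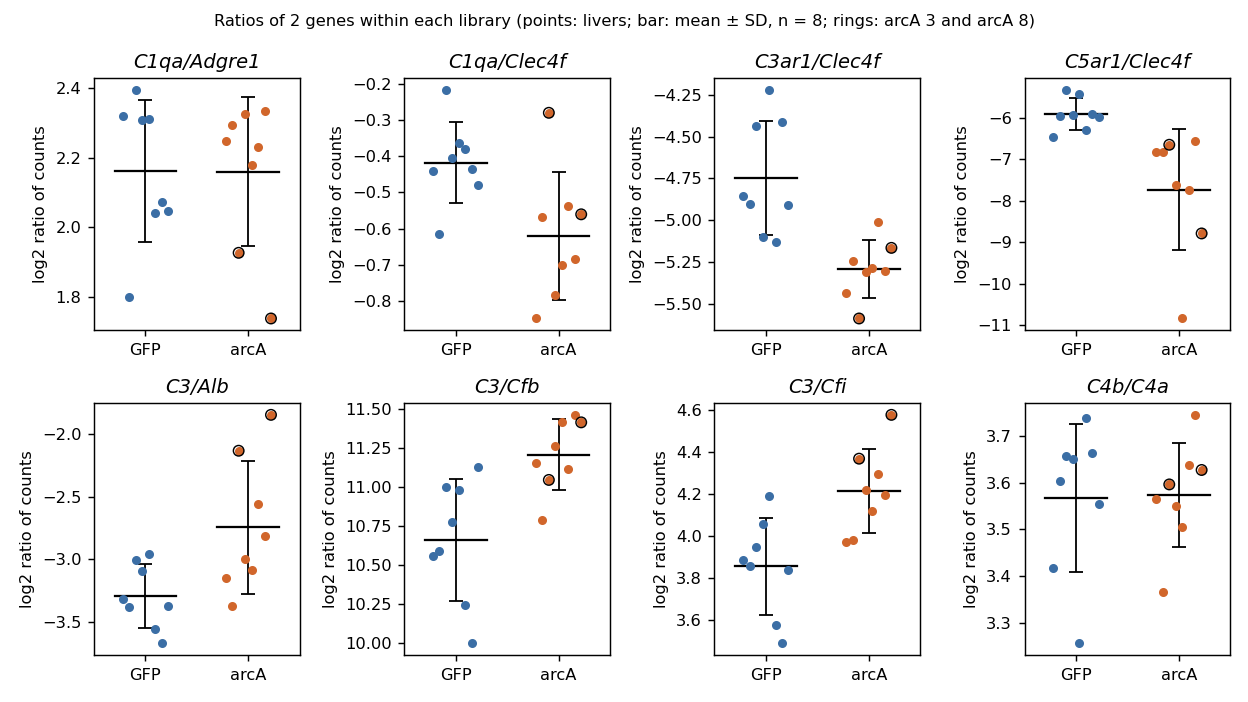
Log2 ratio of the counts of 2 genes within each library (y axis; 1 point per liver, mean ± SD, 8 livers per group; arcA 3 and 8 ringed). C1qa to Adgre1 has the same mean in both groups (2.16), while C5ar1 to Clec4f has means of -5.91 and -7.73 and C3 to Cfi rises from 3.85 to 4.21.

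Livers of the arcA group differed among themselves. arcA 3 and 8 were the highest 2 arcA livers for 14 of 20 hepatocyte members, and the median hepatocyte member lay 0.53 and 0.54 above the GFP mean there (log2 CPM), against -0.0031 to 0.34 in the other 6 arcA livers. For the macrophage members arcA 3 lay 0.11 above the GFP mean by their median and arcA 8 at -0.67, while the other 6 ranged from -1.65 in arcA 5 to -0.51 in arcA 6. Of 25 tested acute phase genes, 4 rose (Fga, Fgb, Fgg and Crp), where 4.27% of all tested genes did. The same 4 rose without arcA 3 and 8. The median log2 fold change of the 25 was 0.62 with all livers. It was 0.05 without arcA 3 and 8, where Saa2 and Saa3 were lower. The part of the acute phase genes in the hepatocyte result was not tested. C3 passed both with arcA 3 and 8 and without them.

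**Figure D4:**
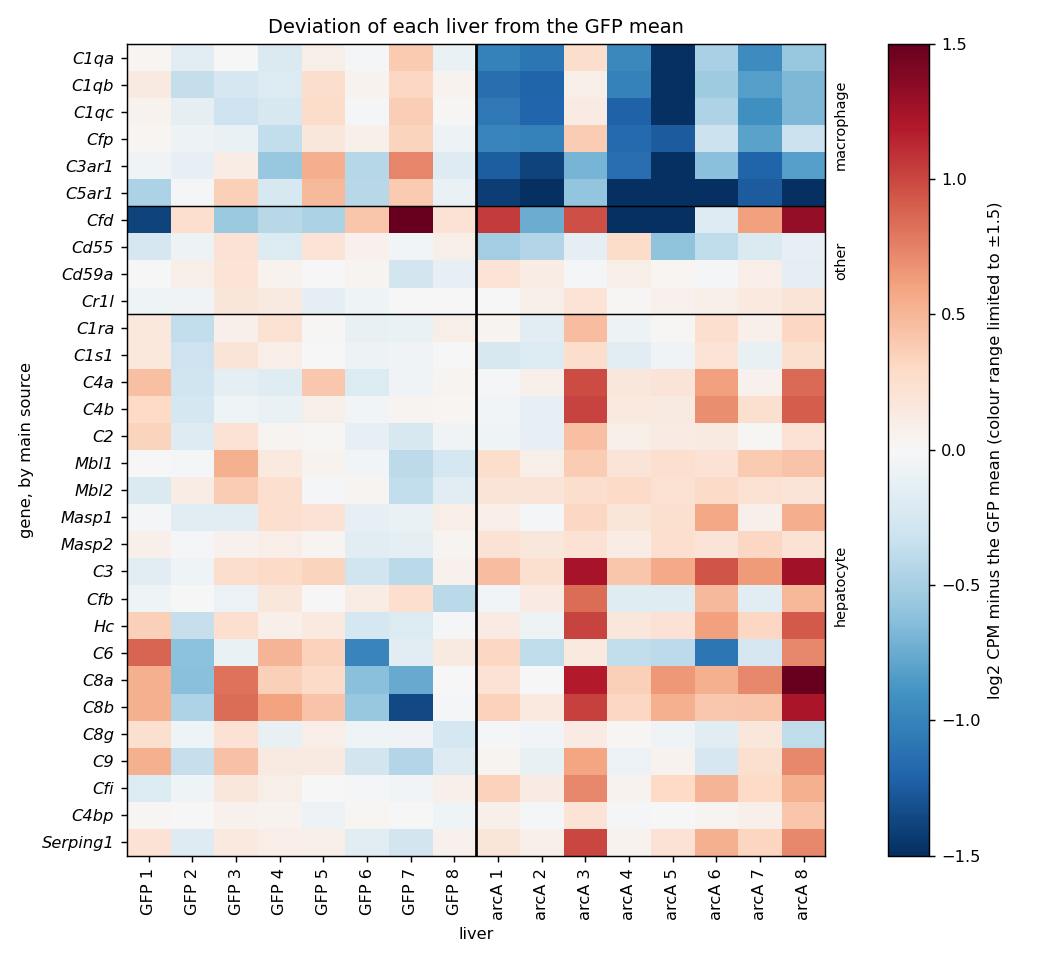
Log2 CPM of each tested complement gene (rows, by main source) in each liver (columns) minus the mean of the 8 GFP livers, with colours limited to ±1.5. The macrophage rows are low in 7 arcA livers; in arcA 3 the C1q genes and Cfp lie above the GFP mean and the receptors below it. For 14 of 20 hepatocyte rows arcA 3 and 8 are the highest 2 arcA livers.

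How members varied together was examined within each group over 24 relations (12 gene pairs in 2 groups), of which 10 passed by Pearson r. Fewer passed by Spearman rho. These were C3 with Saa2, C3 with Fgb, C1qa with C1qb and C1qa with Clec4f in arcA livers, and C4b with C4a in GFP livers. In arcA livers log2 C3 tracked Fgb, a fibrinogen chain, with r = 0.92 and rho = 0.98 (n = 8, exact permutation adjusted p = 0.00143 and 0.00317), and r was 0.98 without arcA 3 and 8. In GFP livers the same pair gave r = 0.71 and rho = 0.69 (exact permutation adjusted p = 0.0919 and 0.167). C3 and Saa2 formed separate clusters in the arcA group, so only the 6 livers other than arcA 3 and 8 are given (r = 0.86, exact permutation p = 0.0111, unadjusted); in GFP livers r was 0.04 and rho -0.14 (exact permutation adjusted p = 0.951 and 0.785). C3 and Cfb in arcA livers gave r = 0.83 and rho = 0.62 (exact permutation adjusted p = 0.042 and 0.23), which rested on arcA 3 and 8 (r = 0.53 without them). C4b and C4a, which share sequence, gave r = 0.88 in GFP and 0.97 in arcA livers (exact permutation adjusted p = 0.00143 and 0.00367). Their rho was 0.90 and 0.79 (exact permutation adjusted p = 0.0219 and 0.0838). C1qa and C1qb gave r = 0.76 in GFP and 0.98 in arcA livers (exact permutation adjusted p = 0.042 and 0.000595). Their rho was 0.79 and 1.0 (exact permutation adjusted p = 0.0838 and 0.00119).

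C1qa and Clec4f gave r = 0.97 and rho = 0.90 in arcA livers (exact permutation adjusted p = 0.00143 and 0.0219), and 0.86 without arcA 3 and 5. In GFP livers r was 0.83 and rho 0.74 (exact permutation adjusted p = 0.0498 and 0.122), but -0.06 without GFP 4 and 7, so it rested on those livers. C1qa and Gpnmb, a marker of lipid-associated macrophages, gave r = 0.91 and rho = 0.79 in GFP (exact permutation adjusted p = 0.0122 and 0.0838; r = 0.66 without GFP 4 and 7) and r = 0.33 and rho = 0.26 in arcA livers (exact permutation adjusted p = 0.575 and 0.678). Whether the relations differ between the groups was not tested. The remaining pairs were C3 with C9, C3ar1 and C5ar1 with Gpnmb, C7 with Dcn and Cfd with Car3, and none of these passed in either group.

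**Figure D5:**
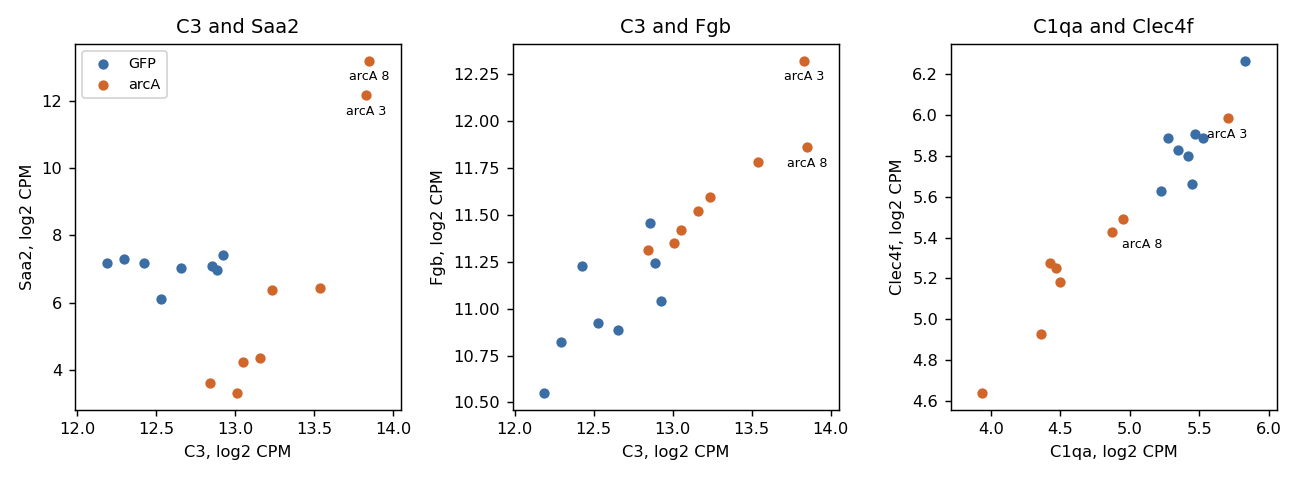
Log2 CPM of 2 genes per liver for C3 with Saa2, C3 with Fgb and C1qa with Clec4f (1 point per liver, 8 per group, linear axes of log2 values). C3 and Fgb lie along a line in arcA livers (r = 0.92), arcA 3 and 8 stand apart for Saa2, and C1qa and Clec4f lie along a line in arcA livers (r = 0.97).

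Other complement genes outside the 31 were read from a separate list, of which 31 of 32 were in the table and 26 were tested. Of these, 8 rose and 4 fell, where 4.27% of all tested genes rose and 6.57% fell. The median log2 fold change of the 26 was 0.16. Crp is also counted among the acute phase genes. Those that rose included vitronectin (Vtn, 0.42), the carboxypeptidase N subunits that trim C3a and C5a (Cpn1, 0.26; Cpn2, 0.38), the lectin Colec12 (0.22) and C-reactive protein (Crp, 0.48). Without arcA 3 and 8, 3 of the 8 passed (Cpn1, Colec12 and Crp). The genes that fell were Itgax (-2.31 ± 0.38; edgeR, adjusted p = 0.000669) and Itgb2 (-1.26 ± 0.24; adjusted p = 0.00308), chains of a leukocyte receptor for cleaved C3b, and Cd93 (-0.66) and the lectin Colec11 (-0.31). Itgax, with 66 counts over all arcA libraries, passed the expression filter only through the GFP group. Vsig4, the complement receptor of Kupffer cells, had -0.57 ± 0.18 (edgeR, adjusted p = 0.0538) and passed without arcA 3 and 8 (-0.80, adjusted p = 0.00141).

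Of 20 tested inducers and transcription factors of hepatic complement, 1 rose and 2 fell, where 4.27% of all tested genes rose and 6.57% fell. These counts are near those shares and are not read as a result about the list. Ifngr2, a chain of the interferon gamma receptor, fell (-0.23 ± 0.06; edgeR, adjusted p = 0.013), with every arcA liver below the GFP median. Stat3, which carries the interleukin 6 signal, had 0.25 ± 0.11 (edgeR, adjusted p = 0.176). Il1b had -0.97 ± 0.34 (edgeR, adjusted p = 0.0741), from 243 counts in all GFP and 123 in all arcA libraries. It reached the expression filter only through the GFP group, so its inclusion already depends on its difference.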

How the data were processed

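Liver RNA of 8 GFP and 8 arcA samples was sequenced after oligo-dT selection, per the labels. The authors deposited raw counts per gene, made with STAR 2.5.1a and featureCounts 1.4.6-p5 on GRCm38, per the submitters' processing notes. The gene annotation release, the strand setting and the counting of mates are not stated in the sources. Of 40757 lines, 348 exact copies were removed and 85 lines with repeated symbols (47 counts) were dropped, which left 40324 symbols. In each library 68.1% to 71.4% of the counts from 1 to 20 were even, so mates may have been counted separately; halved counts were run as an alternative.

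Groups came from the labels. All genes were fitted in edgeR 4.0.16 (filterByExpr, TMM, robust quasi-likelihood, Benjamini-Hochberg at 0.05), and the 31 members were read from that fit. CPM used TMM-scaled library sizes, and log2 CPM a prior count of 2. On simulated counts, 74.6% of genes changed 1.5-fold, 97% of those changed 2-fold and 100% of those changed 4-fold were recovered (arcA against GFP, 14476 genes). Of 14276 unchanged genes 11 were called. The changed genes were drawn only above a floor of mean count that C5ar1 and Cfd do not reach, so these rates do not cover them. No change smaller than 1.5-fold was simulated. The rates therefore do not cover Masp2, Cfi and Serping1 (1.16-, 1.29- and 1.33-fold) or other members with differences below 1.5-fold. Ratios of 2 genes within a library (counts + 0.5) and relations across livers used exact permutation tests, two-sided, adjusted over 20 ratios and 24 relations. Alternatives used limma 3.58.1, DESeq2 1.42.0 and sva 3.50.0; their effect is in the closing section.

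The members and gene lists were chosen with earlier results of these data known. All 31 members are named, with genes of other lists past the threshold and fixed ratio partners; C1rb, C1s2, C5ar2, Tardbp, Vsig4, Stat3 and Il1b were named for their relation to a member after their values were seen. Of 18 tested hepatocyte markers 2 rose and 0 fell. Lists not described in the report gave the counts below, where 4.27% of all tested genes rose and 6.57% fell. Of 12 stellate cell and fibroblast markers 8 fell, and of 10 sinusoidal endothelial markers 1 fell. Of 5 tested bile duct markers 0 passed. Of 4 tested adipocyte markers, from a list of 8, 2 rose (Retn and Car3). Car3 stood at 1993 to 3248 CPM over all livers, and this count is not read as a result about fat cells. Exon overlap and shared 31-base words came from GENCODE M21, and promoter windows from RefSeq; no window was printed for C1qa, C2, C4a, C4b, Cfb, Cfi, Masp1 and Serping1. Some genes of the other lists are counted there but not reported here by name.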

Additional observations from a re-analysis of the deposited data

Results flagged for a closer look

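In 6 of 62 sets of 8 livers (31 genes in 2 groups), 1 liver stood apart from the rest of its group: its gap to the nearest liver, as a share of the group's range, exceeded the 95% critical value of Dixon's test for 8 values. Chance gives about 5% of such sets.

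Among macrophage members, C1qa was 56.85 CPM in GFP 7, where the next GFP liver had 46.01 CPM. In arcA 3, C1qa was 52.06 CPM (next 30.92 CPM) and Cfp was 21.86 CPM (next 13.43 CPM). GFP 7 also had 1.351 CPM of Cfd, against 0.4388 CPM in the next GFP liver. C7 was 0.6276 CPM in GFP 1 (next 0.284 CPM). Cd55 was 6.083 CPM in arcA 4 (next 4.606 CPM).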

How the results depend on the processing

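With 4 members higher and 5 lower as reported, 2 were higher with scaling by library size alone, 1 with scaling on hepatocyte markers (which shifts the median of all genes from 0.0091 to -0.14) and 10 with surrogate variables; 3 were lower without GFP 2, 3 and 5. Leaving out 1 library gave 3 to 7 higher and 4 to 6 lower. C3, C3ar1 and C1qb passed under all 28 alternatives. C5ar1 passed in all 27 that tested it, but it reached the expression filter only through the GFP group. On hepatocyte-marker scaling Cfi did not pass (0.22, adjusted p = 0.0869 in edgeR). Of 20 ratios 7 passed as reported, 4 without GFP 2, 3 and 5, and 5 to 7 without 1 library. The cause of these changes was not tested.

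Signs turned for some differences that did not pass as reported. On hepatocyte-marker scaling the log2 fold changes were -0.0228 for C1ra, -0.0341 for C2, -0.0413 for C4bp, -0.1028 for Cd59a and -0.0454 for Cr1l. C8g was 0.0019 with voom and 0.0002 without GFP 2, 3 and 5, C9 was -0.0554 without arcA 3 and 8, and Cfd was 0.5916 with surrogate variables. Without 1 library, C1s1 ran from -0.0566 to 0.0301 and Cfd from -0.3436 to 0.5518. Log2 ratio differences without GFP 2, 3 and 5 were 0.0022 (C1qa to Adgre1), -0.0093 (Cfb to Alb), 0.0287 (C9 to Alb) and -0.0307 (C4b to C4a). Without arcA 3 and 8 they were 0.1067 (C1qa to Adgre1), -0.242 (Cfb to Alb), -0.0113 (Mbl2 to Alb), -0.0176 (Hc to Alb) and -0.0062 (C4b to C4a). Without 1 library they ran from -0.0534 to 0.0581 (C1qa to Adgre1), -0.0168 to 0.0395 (C1qc to C1qb), -0.1084 to 0.0804 (Cfb to Alb), -0.1525 to 0.0785 (C9 to Alb), -0.0382 to 0.0361 (C4b to C4a) and -0.2366 to 0.4236 (C7 to Dcn).

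Livers with the same number shared only the number: their deviations correlated at -0.0487 to 0.159, and 2 of 8 correlated best with their own number. With the replicate number as a block, 4 members were higher and 4 lower, C1qc being lost (edgeR, adjusted p = 0.0522), and 0 of 20 ratios passed; sign flips in 8 pairs cannot give an adjusted p below 0.0521 there. Depth limited C5ar1, Cfd and C7, with 0 to 81 counts per library.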
